A study of Mus musculus with 8 samples.

Results

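The genes described here are 8 regulators of fatty acid use: the receptors Ppara, Ppard and Pparg, the coactivators Ppargc1a and Ppargc1b, the dimer partner Rxra, the corepressor Ncor1 and the membrane-bound transcription factor Creb3l3. They were taken by gene symbol from a table of 17634 genes, and all 8 were among the 12908 genes tested. The libraries hold RNA of crypts from the small intestine, taken from irradiated C57BL/6N mice at 3 days: 4 are wild type and 4 are miR-29ab1-/-, named for the locus of miR-29a and miR-29b-1. Every library is from an irradiated mouse, so each difference below is one of genotype after irradiation. The sources used here do not give the radiation dose, the age of the mice or whether the deletion is limited to one cell type. The levels of the deleted microRNAs were not analysed, so the genotype labels were not checked by their target.

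PPAR receptors are nuclear receptors that bind fatty acids and their derivatives. They sit on DNA as dimers with a retinoid X receptor such as RXRA, recruit corepressors such as NCOR1 when no ligand is bound, and recruit coactivators such as the PGC-1 proteins when one is. PPARA drives fatty acid oxidation in liver and in the absorptive cells of the small intestine, PPARD is made in most tissues including crypts, and PPARG is best known from fat cells and the colon. CREB3L3, also called CREBH, is a membrane-bound factor of liver and intestine that is released by proteolysis in the Golgi. It regulates lipoprotein and fatty acid genes together with PPARA.

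The microRNAs of the deleted locus and their relatives share one seed, and the mature sequences (RefSeq, GRCm38.p6) are shown to let the seed be read against the sites that follow. Capitals mark the seed, bases 2 to 8. miR-29a and miR-29b-1 lie on the minus strand of chromosome 6, at chr6:31062673-31062694 and chr6:31063025-31063047. miR-29c lies on the plus strand at chr1:195037600-195037621 and is outside the deleted locus. The Mir29b-2 gene on chromosome 1, also outside it, gives the same mature sequence as Mir29b-1.
miR-29a-3p: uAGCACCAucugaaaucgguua
miR-29b-3p: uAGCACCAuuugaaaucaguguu
miR-29c-3p: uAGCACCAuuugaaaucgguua

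The match to this seed, TGGTGCT, was looked for in 1 UTR per tested gene, the longest 3′ UTR in GENCODE M21 (GRCm38). It occurred in 15.5 percent of the 12641 genes with such a UTR and in 2 of the 8 regulators, Ppard and Ppargc1a, with 1 match each. The match in Ppard covers bases 1470 to 1476 of a UTR of 1625 bases, and that in Ppargc1a bases 3309 to 3315 of a UTR of 3930 bases. Both are shown with the 8 bases on either side and the match in capitals. A match is a description of the letters and not a tested site. Of these genes, Ppargc1a was higher in the knockout and Ppard was not called, as given below.
Ppard: cccaggtcTGGTGCTgaggatgc
Ppargc1a: acccgaacTGGTGCTttagaaat

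Libraries held 9481191 to 16231089 counts. Levels are counts per 1e6 (CPM) scaled by the trimmed mean of M-values (TMM) of edgeR, and a gene was called at an edgeR adjusted p under 0.05. Of the 12908 genes, 47.3 percent were called, 24.2 percent higher and 23.1 percent lower in the knockout. With total-count scaling 47.3 percent were called too, 16.2 percent higher and 31.1 percent lower, and with the replicate number as a block 56.0 percent, 28.4 percent higher and 27.5 percent lower. Scaling by total counts moved the median log2 fold change of all tested genes from 0.03 to −0.23, and changes smaller than that shift depend on the scaling. Transcripts of Paneth cells (lysozyme, Lyz1, at 4859 ± 608 CPM in wild type), stem cells and dividing cells were present as the label of the tissue implies. Replicate 4 of both genotypes held 3 and 1 counts of 4 Y-linked genes, against 1285 to 2061 in the other 6 libraries, and values without replicate 4 are given where they change a call. Nothing in the labels says how the mice were housed or handled, and the p-values rest on the spread of these 8 libraries alone.

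Ppara, Creb3l3, Ppargc1a and Rxra rose in the knockout, by 11.7-fold, 9.37-fold, 4.05-fold and 2.55-fold, and Ncor1 rose by 1.36-fold under the main scaling. Ppard, Pparg and Ppargc1b were not called. In all, 5 of the 8 were called higher and none lower, beside 24.2 and 23.1 percent of all tested genes, and the same 5 did not overlap between the groups, beside 22.7 percent of tested genes that lay wholly higher. The plot of levels by library shows the values behind these counts.

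**Figure D1:**
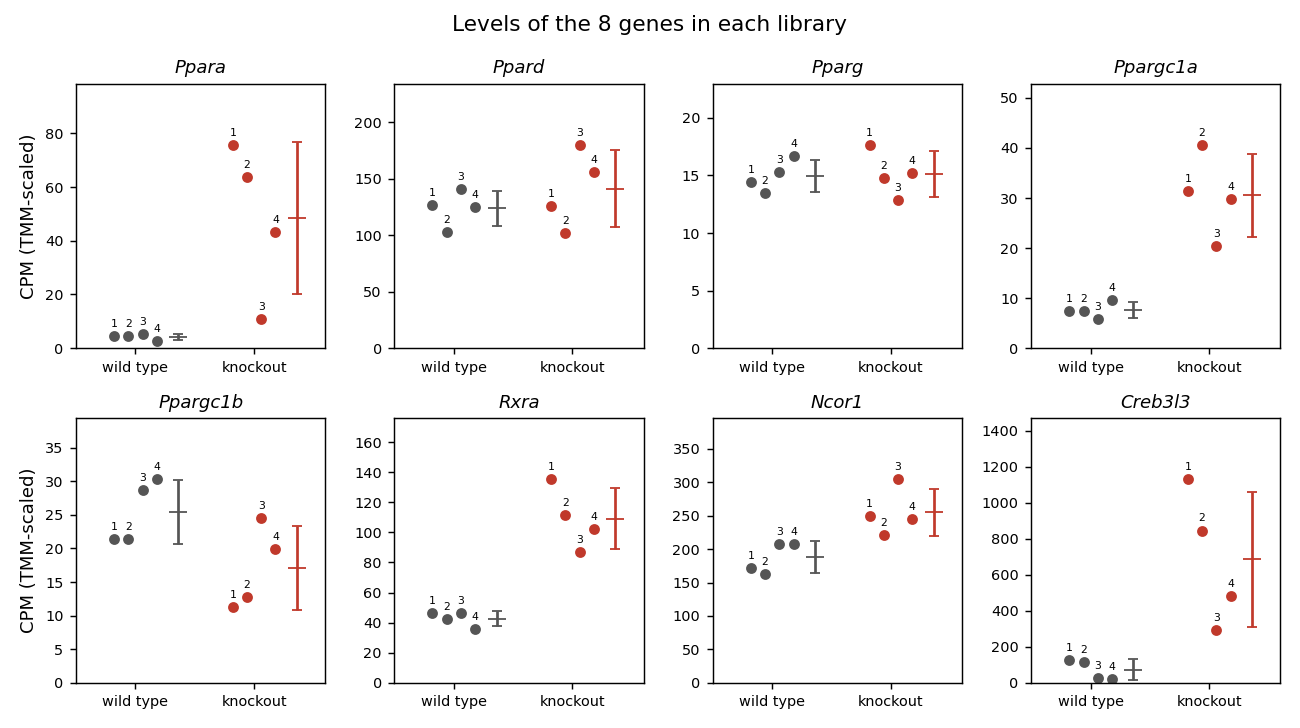
CPM (TMM-scaled) of the 8 genes in each of 4 wild-type (grey) and 4 knockout (red) libraries; digits are replicate numbers, and the bar to the right of each group is the mean ± SD. Ppara, Ppargc1a, Rxra, Ncor1 and Creb3l3 lay wholly higher in the knockout, and Ppara of knockout replicate 3 (10.8 CPM) lay nearest to wild type.

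Among the receptors, Ppara stood at 4.44, 4.39, 5.20 and 2.53 CPM in wild-type replicates 1 to 4 and at 75.8, 63.7, 10.8 and 43.4 CPM in knockout replicates 1 to 4. All 4 knockout libraries were above all 4 wild-type ones, but knockout replicate 3 was far closer to wild type than the other knockout libraries. Its log2 fold change was 3.55 (SE 0.54, edgeR adjusted p = 0.00145), with a 95 percent interval of 2.32 to 4.78. It was 3.88 without knockout replicate 3, and between 3.23 and 3.88 with any single library left out.

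Ppard, the most abundant of the 3 receptors per length, stood at 126, 103, 141 and 125 CPM in wild type and at 126, 102, 180 and 155 CPM in the knockout. The groups overlapped, and the knockout was above its same-numbered wild-type library in 2 of 4 pairs. The log2 fold change was 0.19 (SE 0.18, edgeR adjusted p = 0.426), and its 95 percent interval, −0.23 to 0.60, leaves room for a rise of 1.51-fold. Its sign turned with total-count scaling (−0.05, edgeR adjusted p = 0.882).

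Pparg stood at 14.4, 13.5, 15.3 and 16.7 CPM in wild type and at 17.7, 14.8, 12.9 and 15.2 CPM in the knockout. These groups overlapped over nearly their whole range. This gave a log2 fold change of 0.02 (SE 0.14, edgeR adjusted p = 0.937), with a 95 percent interval of −0.30 to 0.33, and it turned to −0.27 with total-count scaling (edgeR adjusted p = 0.188). Neither call says that the receptor is unchanged, only that a difference was not detectable beyond these intervals.

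The PGC-1 coactivators differed from each other. Ppargc1a (PGC-1α, best known for driving mitochondrial biogenesis and oxidation) stood at 7.40, 7.35, 5.74 and 9.64 CPM in wild type and at 31.5, 40.7, 20.3 and 29.8 CPM in the knockout. All knockout libraries were well above all wild-type ones. Its log2 fold change was 2.02 (SE 0.24, edgeR adjusted p = 0.00108).

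Ppargc1b (PGC-1β, its close relative) stood at 21.4, 21.4, 28.7 and 30.3 CPM in wild type and at 11.2, 12.7, 24.5 and 19.9 CPM in the knockout. The groups overlapped through knockout replicate 3 alone, which lay above wild-type replicates 1 and 2. Replicates 3 and 4 were higher than replicates 1 and 2 in both genotypes, and the knockout was lower in all 4 same-numbered pairs. The log2 fold change was −0.58 (SE 0.26, edgeR adjusted p = 0.0921). With the replicate number as a block it was −0.62 and was called (edgeR adjusted p = 0.00858), and it was also called without knockout replicate 3 (−0.80, edgeR adjusted p = 0.0191). Its fold change was negative in every setting run. In limma on log2 FPKM it was called just under the threshold (limma adjusted p = 0.0480 and 0.0491 with pseudocounts 1 and 0.1). There the median log2 fold change of all tested genes was −0.19 and −0.25.

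Rxra, the dimer partner of all 3 receptors, stood at 46.2, 42.2, 46.4 and 35.9 CPM in wild type and at 135, 111, 86.7 and 102 CPM in the knockout. The groups were far apart, and knockout replicate 3 was again the lowest of its group. Its log2 fold change was 1.35 (SE 0.15, edgeR adjusted p = 0.00108), with a 95 percent interval of 1.01 to 1.70.

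Ncor1, which holds histone deacetylase activity at unliganded receptors, stood at 172, 163, 208 and 208 CPM in wild type and at 250, 221, 304 and 245 CPM in the knockout. The groups did not overlap in CPM, but they did in FPKM, which is scaled by the library total. Its log2 fold change was 0.44 (SE 0.14, edgeR adjusted p = 0.0304). Under total-count scaling it was 0.18 and not called (edgeR adjusted p = 0.486), nor was it in replicates 1 to 3 alone (0.46, edgeR adjusted p = 0.0825). Leaving out any one of wild-type replicates 1 and 2 and knockout replicates 1, 3 and 4 also ended the call (edgeR adjusted p from 0.0698 to 0.0915).

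Creb3l3 stood at 126, 118, 26.2 and 22.9 CPM in wild type and at 1129, 845, 292 and 480 CPM in the knockout. Within wild type, replicates 1 and 2 were far above replicates 3 and 4, and within the knockout replicates 1 and 2 were again the highest. The groups did not overlap. Its log2 fold change was 3.23 (SE 0.68, edgeR adjusted p = 0.00464), and with the replicate block, which takes out the shared pattern of the numbers, it was 3.46 (edgeR adjusted p = 0.000286).

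**Figure D2:**
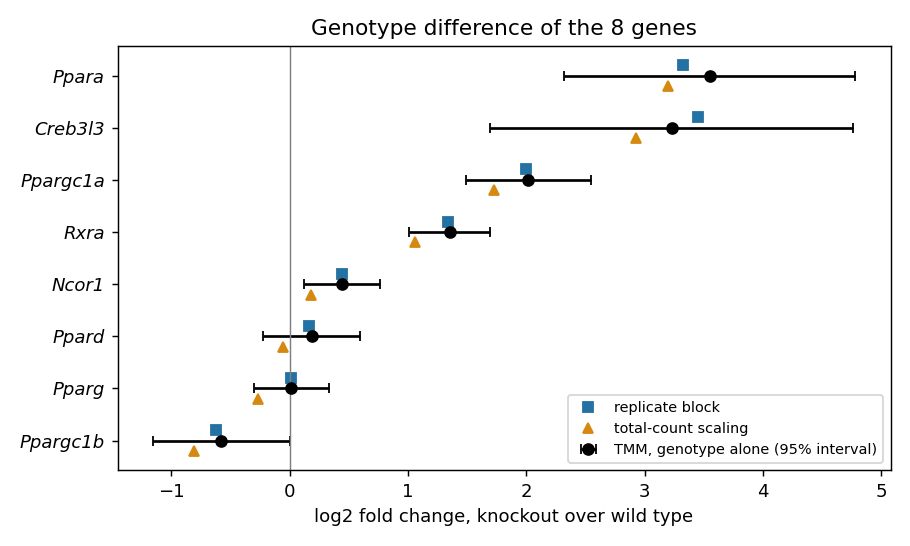
Log2 fold change, knockout over wild type, of each gene: black circles with 95 percent intervals are the test with TMM scaling and genotype alone, blue squares add the replicate block and orange triangles use total-count scaling. Ppara, Creb3l3, Ppargc1a and Rxra stayed above 1 in all 3, Ncor1 shrank to 0.18 with total-count scaling, and Ppard and Pparg crossed 0.

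Levels of different genes can be compared per length, so the order was read from the deposited FPKM (fragments per kilobase and 1e6 counts). In wild type the order was Ppard (44.1 ± 7.89 FPKM, SD, n = 4), Creb3l3 (36.2 ± 26.7), Ncor1 (25.0 ± 4.68), Rxra (9.84 ± 1.35), Pparg (8.88 ± 1.13), Ppargc1b (5.25 ± 1.19), Ppargc1a (1.3 ± 0.27) and Ppara (0.63 ± 0.18). Neighbours from Ppard to Ncor1, and Rxra and Pparg, overlapped between libraries, and the other neighbours did not. In the knockout Creb3l3 came top at 275 ± 121 FPKM, with Ppard next at 42.6 ± 15.6 and no overlap between them. Ppara, last in wild type, stood at 5.76 ± 2.98 FPKM in the knockout, where its libraries overlapped those of Pparg (7.47 ± 0.67) and Ppargc1a (4.31 ± 0.82). Ppargc1b came last at 2.95 ± 1.52 FPKM, and overlapped Ppargc1a.

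Whether 2 relatives changed by different amounts was tested on their ratio within each library, which does not depend on library scaling. There were 5 such ratios, each tested by an exact two-sided permutation test over the 70 assignments of libraries, whose smallest p is 0.0286. The log2 ratio of Ppara to Ppard was −4.82, −4.53, −4.75 and −5.61 in wild type and −0.73, −0.68, −4.06 and −1.84 in the knockout. It was higher in every knockout library, by 3.10 in the mean (exact permutation p = 0.0286, 0.0357 adjusted over the 5 ratios), although knockout replicate 3 was close to wild type. Without that library the difference was 3.85.

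The log2 ratio of Ppargc1a to Ppargc1b was −1.52, −1.54, −2.32 and −1.65 in wild type and 1.48, 1.67, −0.27 and 0.58 in the knockout. Ppargc1b counts thus exceeded those of Ppargc1a in all 4 wild-type libraries and in knockout replicate 3, and the reverse held in the other 3 knockout libraries. The difference in the mean was 2.62 (exact permutation p = 0.0286, 0.0357 adjusted). The ratios of Ppara to Pparg and of Ppara to Rxra were higher by 3.25 and 1.93, with the same exact permutation p-values. These ratios are not independent results. Ppara is shared by those to Ppard, Pparg and Rxra, and Ppara and Ppargc1a were each called higher on their own. The ratio of Pparg to Ppard differed by −0.15 and its groups overlapped (exact permutation p = 0.571, also adjusted).

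**Figure D3:**
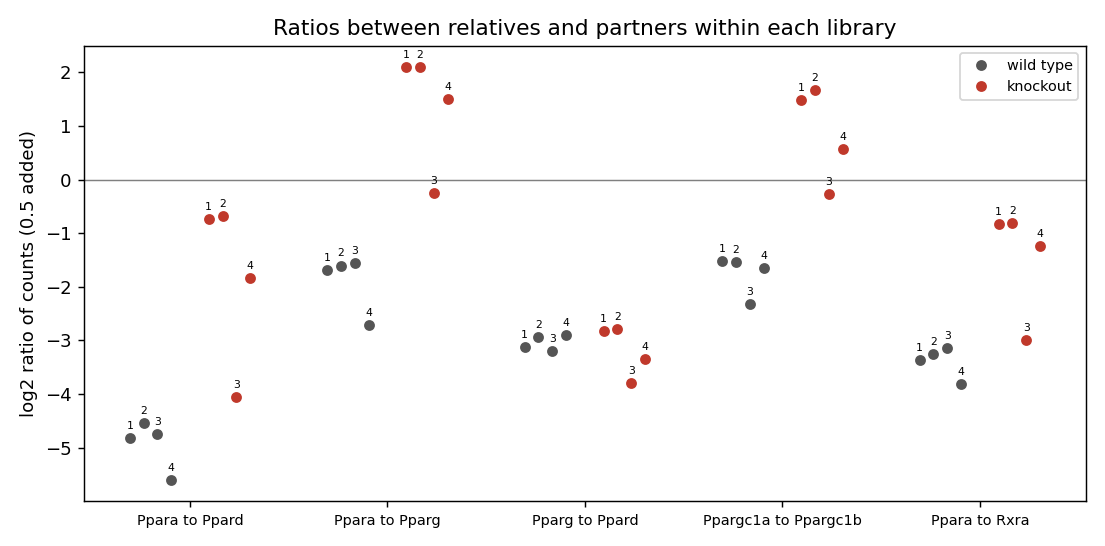
Log2 ratio of counts between pairs of genes within each library, wild type in grey and knockout in red, with replicate numbers. In 4 of the 5 ratios every knockout library lay above every wild-type library, with knockout replicate 3 the lowest of its group, while Pparg to Ppard overlapped.

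Of 8 listed RXR receptors and corepressor components, 7 were tested, 2 rose and 2 fell, beside 24.2 percent of all tested genes called higher and 23.1 percent lower, so the share is near that of all genes. Nrip1, a corepressor that binds liganded receptors, rose 1.62-fold from 62.3 ± 8.98 to 101 ± 15.3 CPM (SD, n = 4; edgeR adjusted p = 0.00432), and Tbl1xr1, an exchange factor of the NCoR complex, rose 1.38-fold. The deacetylase Hdac3, the enzyme of the NCoR complex, was lower by 1.48-fold, from 124 ± 12.6 to 84.0 ± 8.68 CPM (edgeR adjusted p = 0.00454), and Tbl1x by 1.35-fold. Rxrb, the relative of Rxra, stood at 42.5 ± 2.35 and 37.6 ± 3.04 CPM and was not called (edgeR adjusted p = 0.163). With total-count scaling no gene of the list was called higher and 4 were called lower, Rxrb among them.

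Of 13 other coactivators and enzymes that act on PGC-1, all tested, 3 rose and 3 fell, again near the 24.2 and 23.1 percent of all tested genes. Pprc1, a more distant relative of both PGC-1 coactivators, was lower by 1.97-fold, from 112 ± 18.6 to 56.7 ± 15.6 CPM (SD, n = 4; edgeR adjusted p = 0.00453). The acetyltransferase Kat2a (GCN5), which acetylates PGC-1α, was lower by 1.90-fold and the methyltransferase Carm1 by 1.5-fold. Kat2b, the relative of Kat2a, rose 1.73-fold. The coactivator Ncoa2 and the phosphatase and coactivator Lpin1 rose 1.45-fold each, neither of them called under total-count scaling (edgeR adjusted p = 0.299 and 0.377). Within the PGC-1 family, then, Ppargc1a rose, Pprc1 fell and Ppargc1b was not called (edgeR adjusted p = 0.0921). With the replicate block Ppargc1b was called lower, as were 27.5 percent of all tested genes.

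Of 13 factors that PGC-1 coactivates or that act downstream of it on mitochondrial DNA, 12 were tested, 2 rose and 4 fell, which is also not far from the 24.2 and 23.1 percent of all tested genes. Esrra, the estrogen-related receptor through which PGC-1α acts on oxidative genes, rose 1.83-fold from 108 ± 10.1 to 198 ± 39.1 CPM (SD, n = 4; edgeR adjusted p = 0.00235), and Foxo1 rose 2.04-fold. The mitochondrial transcription factors Tfam, Tfb1m and Tfb2m were lower by 1.38-fold, 1.52-fold and 1.63-fold, and Nrf1, the nuclear respiratory factor, by 1.3-fold. Hnf4a, the receptor of intestinal identity, stood at 643 ± 58.9 and 788 ± 91.9 CPM and was not called (edgeR adjusted p = 0.110), though its groups did not overlap.

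Of 32 listed PPAR target genes, 29 were tested, 21 rose and none fell, beside 24.2 percent of all tested genes called higher and 23.1 percent lower, with a median log2 fold change of 0.89 beside 0.03 over all tested genes. With total-count scaling 2 of them were called lower. This rise as a list was known from an earlier look at these data and is no independent support. Many of these targets are shared by the 3 receptors. Pdk4, the kinase that keeps pyruvate out of oxidation, stood at 2.33, 3.86, 1.2 and 1.71 CPM in wild type and at 190, 216, 10.6 and 175 CPM in the knockout. Angptl4, a secreted lipase inhibitor, stood at 11.3, 12.6, 7.41 and 11.6 CPM in wild type and at 160, 243, 13.1 and 111 CPM in the knockout. For both, knockout replicate 3 was the lowest knockout library, as for Ppara.

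The fatty acid translocase Cd36 rose 25.4-fold, the carrier Slc25a20 1.95-fold, the carnitine acetyltransferase Crat 3.95-fold and the binding protein Fabp1 12.6-fold. The peroxisomal thiolase Acaa1b had 10, 5, 5 and 9 counts in wild type and 179, 123, 47 and 41 in the knockout, and passed the filter on low counts only through the knockout libraries. The droplet protein Plin2 rose 1.5-fold, and under total-count scaling it was not called (edgeR adjusted p = 0.187).

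Cpt1a, the rate-limiting enzyme of fatty acid import into mitochondria and a classical PPARA target, was not among those that rose. It stood at 119, 116, 110 and 146 CPM in wild type and at 105, 109, 91.6 and 97.3 CPM in the knockout. The log2 fold change was −0.28 (edgeR adjusted p = 0.0758), and with total-count scaling it was called lower (−0.56, edgeR adjusted p = 0.00605). Cyp4a10, Cyp4a14 and Ucp3 had too few counts to be tested.

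**Figure D4:**
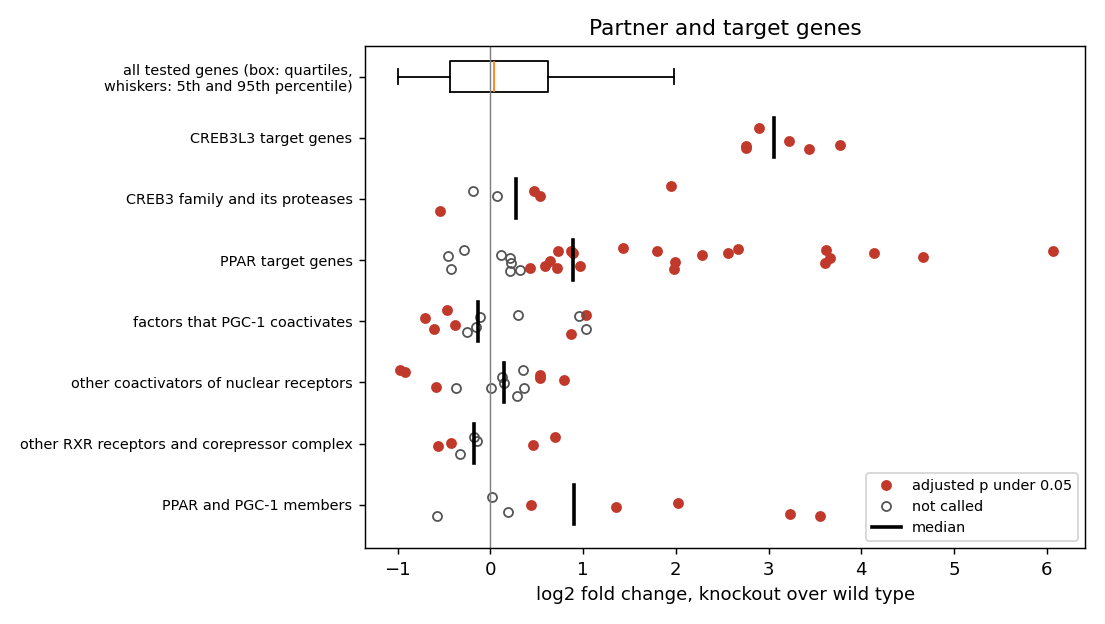
Log2 fold change, knockout over wild type, of each tested gene of 7 lists; filled circles were called, open circles were not, vertical bars are medians, and the box shows all 12908 tested genes. The targets of the PPAR receptors and of CREB3L3 lay mostly to the right, with medians of 0.89 and 3.06, while coactivators, corepressors and PGC-1 partner factors lay on both sides of 0.

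Among relatives of Creb3l3 and the proteases that release them, 3 of 6 rose and 1 fell, beside 24.2 percent of all tested genes called higher and 23.1 percent lower, and with total-count scaling 1 was called higher. Creb3l2, a relative that acts in secretory cells, rose 3.86-fold from 22.2 ± 1.52 to 85.7 ± 25.5 CPM (SD, n = 4; edgeR adjusted p = 0.00108). Creb3 and Creb3l4 rose 1.45-fold and 1.38-fold, and under total-count scaling neither was called (edgeR adjusted p = 0.188 and 0.399). Mbtps2, the protease that makes the second of the paired cuts, was lower by 1.46-fold, and Mbtps1, which makes the other, was not called at 99.7 ± 2.27 and 87.5 ± 10.5 CPM (edgeR adjusted p = 0.170).

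Of 10 listed CREB3L3 targets, 6 passed the filter on low counts and these 6 rose, where 24.2 percent of all tested genes did. The apolipoproteins Apoa1, Apoa4, Apoc2 and Apoc3 rose 9.33-fold, 10.8-fold, 6.75-fold and 13.6-fold, the droplet protein Cidec 7.47-fold, and Npc1l1, the cholesterol transporter, 6.77-fold. Apoa4, the apolipoprotein of chylomicrons, stood at 2170, 2119, 281 and 223 CPM in wild type and at 21125, 19874, 3749 and 7121 CPM in the knockout. As for Creb3l3, replicates 1 and 2 were the highest in both genotypes. The list does not give the direction in which CREB3L3 acts on each gene, Npc1l1 included, so these rises are not read as its activity. The 6 are also made by enterocytes, whose markers follow.

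Markers of absorptive enterocytes moved with these genes. Of 17 enterocyte markers, none of them among the targets above, all 17 rose. Their summed level was 7505, 7703, 3752 and 2186 CPM in wild type and 48046, 35780, 18260 and 30320 CPM in the knockout. Knockout replicate 3 was again the lowest knockout library, and wild-type replicates 1 and 2 were above 3 and 4, as for Creb3l3. In bulk RNA, more cells of a type and more RNA per cell cannot be told apart.

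Set against the enterocyte sum, the levels looked different. Per 1000 CPM of enterocyte markers, Ppara stood at 0.57 to 1.39 CPM in wild type and at 0.59 to 1.78 in the knockout, and the groups overlapped. Creb3l3 stood at 6.98 to 16.8 and 15.8 to 23.6 CPM, with overlap, and Ppargc1a at 0.95 to 4.41 and 0.66 to 1.14 CPM, with overlap. Rxra stood at 5.48 to 16.4 CPM in wild type and 2.81 to 4.75 CPM in the knockout, wholly lower, and so were Ppard, Pparg, Ppargc1b and Ncor1 (Ppard at 13.4 to 57.1 CPM in wild type and 2.61 to 9.86 CPM in the knockout). The enterocyte sum itself did not overlap between the genotypes (2186 to 7703 CPM in wild type, 18260 to 48046 CPM in the knockout). A gene with about the same CPM in both thus comes out lower by this division, as Pparg did. The share of all tested genes that does so was not computed. A gene that rose by less than the sum also tends to come out lower, as Rxra did. Of Ppara, Creb3l3, Ppargc1a and Rxra, none lay wholly higher by this division, and no conclusion about their rise is drawn from it. The part of the enterocyte markers in the rise was not tested.

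**Figure D5:**
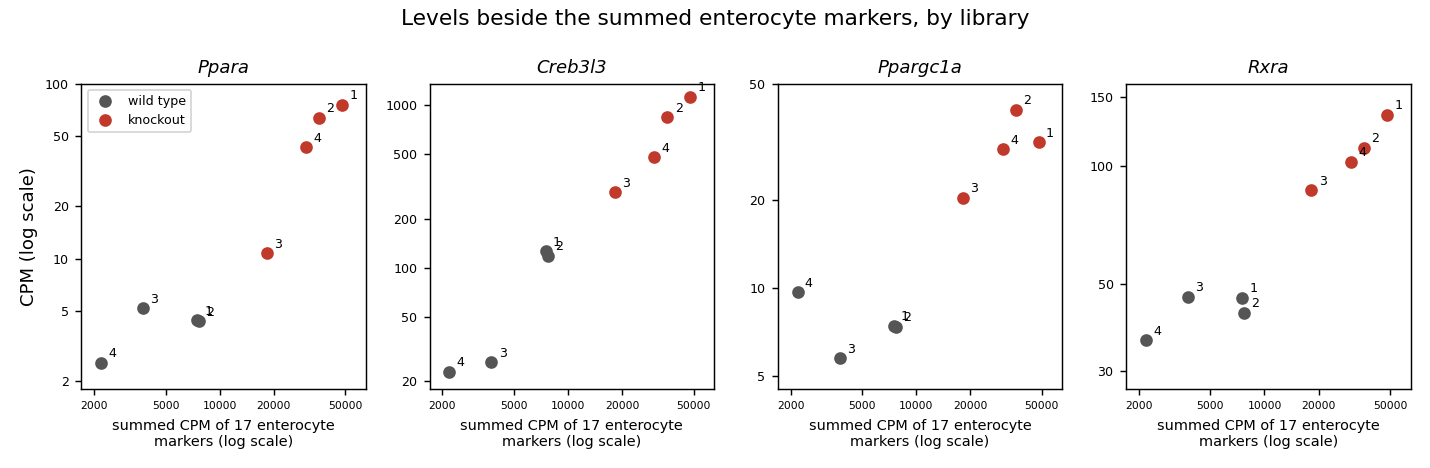
CPM of Ppara, Creb3l3, Ppargc1a and Rxra (log scale) against the summed CPM of 17 enterocyte markers (log scale) in each library; digits are replicate numbers. The libraries fall into the 2 genotypes on both axes, so no correlation is given; within the knockout, replicate 3 was lowest on both axes in all 4 panels.

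Markers of other cell types were also read. Of 7 fat cell markers in the table, Adipoq, Plin1, Retn and Cfd were at means of at most 0.16 CPM in both genotypes, and Cidec, which is also a CREB3L3 target, carried the list's called rise. Fibroblast markers summed to 12.5, 20.1, 170 and 50.2 CPM in wild type and to 13.4, 11.8, 191 and 193 CPM in the knockout, and none of the 4 tested was called. Replicates 3 and 4 of both genotypes were the higher ones, as for Ppargc1b. T and B cell markers summed to 5.23 to 50.3 CPM in wild type and 20.4 to 186 CPM in the knockout, with the top value in knockout replicate 3 and none of 2 tested called, and endothelial markers to 1.97 to 5.34 and 2.65 to 13.9 CPM, with none of 3 called. Of the muscle markers Acta1 was called higher, at 9.69 ± 6.03 and 30.4 ± 13.3 CPM (SD, n = 4; log2 fold change 1.65, edgeR adjusted p = 0.0188), and the others stood at means of at most 1.53 CPM. Macrophage markers summed to 17.9 to 53.0 CPM in wild type and 12.5 to 57.8 CPM in the knockout, with none of 5 called. Dividing-cell markers fell, all 5 of 5, from sums of 1231 to 1628 CPM to sums of 447 to 750 CPM, and 3 of 5 stem cell markers fell. The part of these shifts in the genotype differences of the 8 regulators was not tested.

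The promoters of members that rose together were searched for letters that PPAR dimers and CREB factors are known to bind, in windows from 250 bases before to 50 after each start site (RefSeq, GRCm38.p6), on both strands. The PPAR response element, a direct repeat of AGGTCA with 1 base between the copies, was allowed up to 2 mismatches and was found in 3.86 percent of 32851 windows. The table held windows for 7 of the 8 genes and none for Ppargc1b. Among the 7 it was found in 1 of 2 windows of Rxra (chr2:27709210-27709236, plus strand) and 1 of 2 windows of Creb3l3 (chr10:81092781-81092807, minus strand), and in no window of Ppara, Ppard, Pparg, Ppargc1a or Ncor1. Both are shown with the match in capitals. The exact letters TGACGTCA, the cyclic AMP response element, were in 1.79 percent of windows and in no window of these 7 genes. With 1 mismatch allowed these letters were in 12.5 percent of windows, and among the 7 genes in those of Ppargc1a and Ppard. A match is a description of letters and says nothing of binding.
Rxra: tgagtaaTGGTCATAGGCCAgtgggtg
Creb3l3: tgtaagtAGGGGAGAGGTCAcacagac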

How the data were processed

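The authors deposited estimated counts per gene and library, and a second set of columns without a unit in the headers. In each library 8.04 to 9.18 percent of counts were not whole, and all were rounded. The other columns were taken as FPKM computed by the authors, because dividing a value by its count gave a ratio that varied as the inverse library total, within 1.04 percent. The submitters' processing notes name HISAT2 and DESeq2 but no role for either. For the counting program, build and strandedness: not given in the sources used here.

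Each column was matched to its library by the short name in the labels. The fit used edgeR 4.0.16 (R 4.3.3; filterByExpr, TMM, glmQLFit, glmQLFTest) with genotype as the sole term, checked on simulated counts, and p-values were adjusted by Benjamini-Hochberg over all 12908 genes with a threshold of 0.05. The SE is the log2 fold change divided by the square root of F. Alternatives were DESeq2 1.42.0, other factors and filters, limma 3.58.1 on log2 FPKM (pseudocounts 1 and 0.1), the replicate block, replicates 1 to 3, and each library left out. Same-numbered libraries deviated together (r from 0.31 to 0.52 in 4 pairs, −0.48 to 0.45 otherwise). Wild-type replicate 2 was closer to knockout replicate 1 (r = 0.447) than to knockout replicate 2 (r = 0.311). No label explains the numbers, so the replicate block rests on an uncertain pairing read from these same data. The genes and lists were chosen with earlier results of these data known. Beside the 8 members, named genes are up to 5 per list and direction with the smallest p, all calls where a direction holds 5 or fewer, and a fixed set, of which some genes are not reported here.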

Additional observations from a re-analysis of the deposited data

Results flagged for a closer look

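Among 100 groups of 4 values (the levels of the 8 regulators and of the named genes, and the 5 ratios), 7 held a sample far from the other 3, and chance alone flags about 1 in 20. Among the regulators these were ratios. The log2 ratio of Ppara to Pparg was −2.71 in wild-type replicate 4 and −1.69 to −1.55 in the other wild-type libraries. The log2 ratio of Ppargc1a to Ppargc1b was −2.32 in wild-type replicate 3 and −1.65 to −1.52 in the others. Both lay farther from the knockout than the rest of their group. In wild-type replicate 4 the coactivator Pprc1 was high at 140 CPM (99.1 to 105 CPM in the others) and Hnf4a low at 555 CPM (663 to 680 CPM in the others). Tbl1x stood at 82.7 CPM in wild-type replicate 1 (94.2 to 94.8 CPM in the others), Tfam at 57.1 CPM in wild-type replicate 3 (64.0 to 64.3 CPM in the others) and Ncoa2 at 51.7 CPM in knockout replicate 2 (72.8 to 75.7 CPM in the others).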

How the results depend on the processing

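Ppara, Ppargc1a, Rxra and Creb3l3 kept their direction and call in every alternative run; with single libraries left out they ranged from 3.23 to 3.88, 1.80 to 2.17, 1.19 to 1.45 and 2.88 to 3.62 on the log2 scale. In limma on log2 FPKM with pseudocounts 1 and 0.1, which shrink low genes, Ppara was 1.91 and 2.81 and Ppargc1a 1.2 and 1.65. Ppard ranged from 0.05 to 0.25 and turned negative with total-count scaling (−0.053) and in limma on log2 FPKM with pseudocounts 1 and 0.1 (−0.11 and −0.11). Pparg ranged from −0.11 to 0.084 and turned negative with upper-quartile factors (−0.081), total-count scaling (−0.27), no low-count filter (−0.020) and limma (−0.22 and −0.24). Ppargc1b ranged from −0.80 to −0.48 and was called lower with the replicate block (−0.62) and in limma (−0.72 and −0.92). Ncor1 ranged from 0.35 to 0.49, and its call was lost with upper-quartile factors (0.35), total-count scaling (0.18), no low-count filter (0.40), limma (0.16 and 0.16) and replicates 1 to 3 (0.46). The causes were not tested. The blocked fit changed no other call of the 8. Genes called higher fell from 3129 to 2030 and 2040 in limma on log2 FPKM, and genes called lower rose from 2976 to 4320 and 4289. With 1 library left out, 2366 to 3184 genes were called higher and 2380 to 3228 lower. The ratios kept their direction in every alternative except Pparg to Ppard, which ranged from −0.29 to 0.05 with a library left out; Ppara to Ppard ranged from 2.72 to 3.85, Ppara to Pparg from 2.98 to 3.79, Ppargc1a to Ppargc1b from 2.35 to 3.00 and Ppara to Rxra from 1.70 to 2.44. Tests within pairs (smallest exact p 0.125) or in replicates 1 to 3 cannot reach 0.05 for a ratio. Exact permutation tests with 1 library left out were added after seeing the data: counted as the doubled one-sided p, the 4 called ratios gave 0.0571 each time, the smallest p over 35 assignments, and by absolute difference they gave 0.0286 to 0.0571.

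For the lists, total-count scaling changed the 8 members' median to 0.62; the RXR and corepressor list to 0 higher, 4 lower and a median of −0.45; the coactivators to 1 higher and a median of −0.12; the PGC-1 partner factors to 7 lower and −0.40; the PPAR targets to 2 lower; and the CREB3 family to 1 higher and a median of 0.0025. Replicates 1 to 3 alone gave 1 higher and a median of −0.23 for the RXR list, 1 higher for the coactivators, and 1 higher and a median of 0.15 for the CREB3 family. The replicate block gave 5 coactivators and 4 partner factors higher, and 1 member lower. For single genes of the lists, fits with the block, total-count scaling and DESeq2 were added after seeing the data; of these, 102 kept direction and call, 7 lost the call and 2 gained it. Depth limits Ppara in wild type, with 46 to 87 counts per library.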

Other observations

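The genes whose levels most resembled each regulator within the genotypes were read from the correlation of deviations from the genotype means over the 8 libraries, among 10943 genes with a mean of at least 50 counts. These are descriptions over libraries that share depth and cell makeup, with no test. Creb3l3 was closest to the water and glycerol channel Aqp3 (r = 0.997), Apoa4 (0.995) and the lipase Lipe (0.993), and these 3 rose by 4.08, 3.44 and 2.45 on the log2 scale. Rxra was closest to Mtmr4 (0.986), Atg9a (0.981) and Efna1 (0.980), all 3 called higher. Ppara was closest to the choline transporter Slc44a1 (0.984), Rassf3 (0.978) and Myrfl (0.97). Ppard was closest to Trp53i11 (0.997), Slc29a3 (0.989) and the macrophage receptor gene Csf1r (0.989), and none of these 3 was called. Ppargc1b was closest to Tnfrsf11a (0.993), Zfp612 (0.993) and Slc39a13 (0.991).

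Among the regulators themselves, the same measure was 0.88 between Ppara and Rxra and 0.59 between Ppara and Creb3l3. It was −0.82 between Ppara and Ppargc1b, −0.86 between Ppargc1b and Creb3l3 and −0.86 between Ncor1 and Creb3l3. It was 0.83 between Ppard and Ppargc1b and 0.81 between Ppard and Ncor1. Knockout replicate 3 was the lowest of its group in Ppara, Rxra and Creb3l3 and the highest in Ppargc1b. This did not hold in every library. Wild-type replicate 3 was the highest of its group in Ppara (5.20 CPM) and Rxra (46.4 CPM). Its Ppargc1b (28.7 CPM) was nonetheless above that of wild-type replicates 1 and 2 (21.4 CPM each). Ppargc1a and Rxra, which both rose in the knockout, stood at 0.17.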
